A study of Drosophila melanogaster with 12 samples.

Results

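The PH4alpha genes of Drosophila melanogaster encode alpha subunits of collagen prolyl 4-hydroxylase. All genes whose symbol starts with PH4alpha were taken, which gave PH4alphaSG1, PH4alphaSG2, PH4alphaEFB, PH4alphaMP, PH4alphaNE1, PH4alphaNE2, PH4alphaNE3 and PH4alphaPV, 8 of the 13052 genes that could be matched to probes of the array. The family was chosen by the change of PH4alphaSG1 between low and high temperatures on these same arrays, so the values of this gene are a description and carry no test. The other members entered by name alone. The 8 genes were represented by 9 of 32162 gene probes, and 4 of them (PH4alphaSG1, PH4alphaNE1, PH4alphaNE2 and PH4alphaEFB) passed the filter on dim probes and are among the 15115 features tested.

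The measurements came from S2R+ cells, an embryo-derived Drosophila line with hemocyte-like properties, and all cultures were unmodified cells of this 1 line. Dishes received 4500000 cells for 11 °C, 3500000 for 14 °C, 1700000 for 25 °C and 1500000 for 30 °C, and were moved to the respective temperature a day after plating, for 24 h. RNA of 3 biological replicates per temperature was hybridised to 12 single-colour Agilent arrays. Cell number at plating thus differed between the temperatures and cannot be told apart from temperature. In the main comparison, 11 and 14 °C together (low) were set against 25 and 30 °C together (high), each temperature with equal weight, and 11, 14 and 30 °C were each compared with 25 °C.

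Collagen prolyl 4-hydroxylase resides in the endoplasmic reticulum and hydroxylates proline residues of collagen chains, which stabilises the collagen triple helix. The enzyme is a tetramer in which catalytic alpha subunits pair with beta subunits, and protein disulfide isomerase serves as the beta subunit. The reaction consumes molecular oxygen and 2-oxoglutarate and depends on iron and ascorbate. In Drosophila, most of the alpha subunit genes lie together on chromosome arm 3R, and several were named after a site of embryonic expression (SG for salivary gland, EFB for epidermis and fat body, MP for mouthparts, PV for proventriculus).

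Between 53.9 and 61.1% of the gene spots of an array were well above background, no gene spot was saturated, and replicate arrays of a temperature correlated across features with r between 0.984 and 0.996. The arrays came from 3 slides. The first slide held replicate 1 of every temperature, the second the remaining arrays of 11 and 14 °C, and the third the remaining arrays of 25 and 30 °C, so low and high temperatures could be compared within a slide on the first slide alone. Signals below are processed signals scaled to a common array median. They are comparable between arrays for a given probe, but not between probes. A change was called where it reached 2-fold and its Benjamini-Hochberg adjusted p in limma was below 0.01. The median change of all features between low and high temperatures was -0.17 on the log2 scale, and 0.02 after scaling on the 75th percentile instead. All 9 markers of hemocyte-like cells were tested, and 6 of them were well above background on every array. Their summed signal, carried mainly by the bright markers srp and pnr, was 18960 to 26880 at low and 21590 to 27750 at high temperatures. Nevertheless, 3 of the 9 markers (eater, Hml and NimC1) met the criteria for a lower signal at low temperatures, against 11.4% of all features. The median log2 change of the list was -0.66. Relative to 25 °C it was -0.14 at 11 °C and -0.25 at 14 °C, compared with -0.22 and -0.19 for all features. Ppn and pnr went the other way between low and high temperatures, without a call (log2 changes 0.92 and 0.33, adjusted p = 0.000293 and 0.0228). Ppn was called higher at 11 and 14 relative to 25 °C. The phagocytosis receptor gene eater had mean log2 signals of 3.94, 5.58, 7.85 and 6.56 at 11, 14, 25 and 30 °C, respectively, with a log2 change of -2.44 ± 0.25 between low and high temperatures (adjusted p = 8.08e-06) and of -3.91 ± 0.35 at 11 relative to 25 °C (adjusted p = 7.40e-06). Hml had a log2 change of -1.98 ± 0.32 between low and high temperatures, with its highest signal at 30 °C. Relative to 25 °C it was not called at 11 °C (log2 change -0.57, adjusted p = 0.317) or 14 °C (-0.44, adjusted p = 0.479). It was called higher at 30 °C (2.95, adjusted p = 0.000893). Hml was well above background on 9 arrays. For eater this held on 11 arrays. Its mean at 11 °C lay near the lowest log2 spot signals well above background there (3.06 to 4.35). The changes of both genes are fitted, not bounds. NimC1 was well above background on only 3 arrays and highest at 30 °C, so its test is not given. The part of these marker changes in the values of the PH4alpha genes was not tested.

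**Figure D1:**
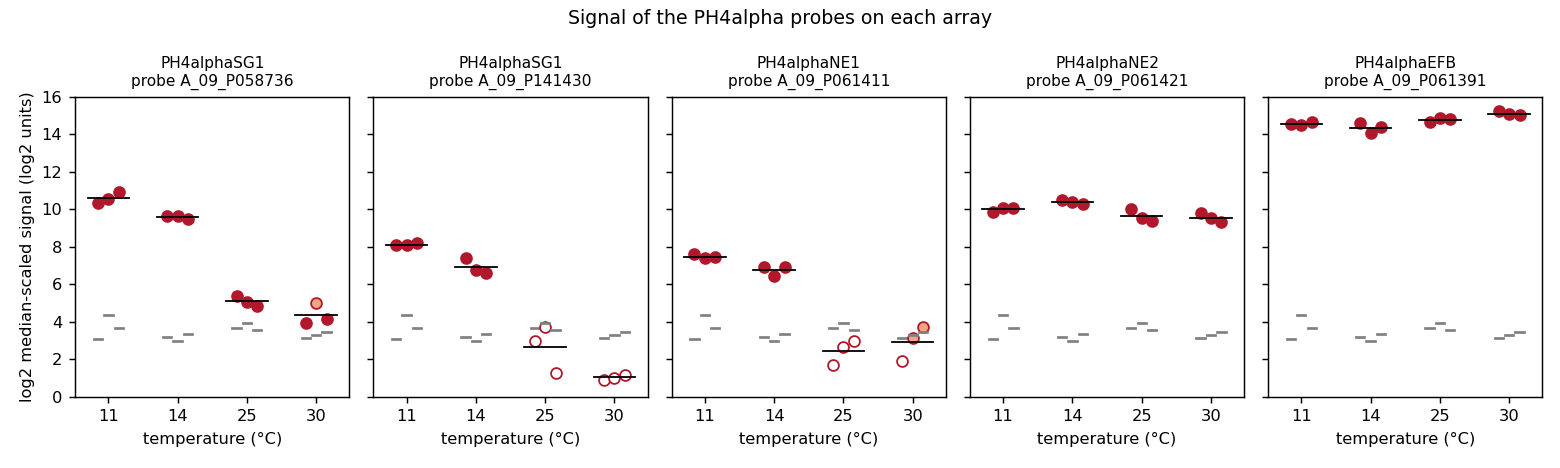
Log2 median-scaled signal (y axis, log2 units) of the probes of the 4 tested PH4alpha genes on each of the 12 arrays, by temperature (x axis, °C). Filled circles mark arrays where all spots of the probe were well above background, pale circles those where only some were, open circles those where none was, black lines the mean of 3 arrays and grey dashes the lowest spot signal well above background on that array. Both PH4alphaSG1 probes and the PH4alphaNE1 probe lay far higher at low than at high temperatures, while PH4alphaNE2 and PH4alphaEFB moved little. Heights cannot be compared between panels.

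PH4alphaSG1, named after its expression in the embryonic salivary gland, was represented by a pair of probes for the transcript CG31014-RA. The brighter probe gave scaled signals of 1264, 1511 and 1924 at 11 °C and of 791, 785 and 714 at 14 °C. The same probe gave 41.9, 32.6 and 29.1 at 25 °C and 15.5, 31.5 and 17.6 at 30 °C. Every array at 11 °C was thus above every array at 14 °C, and these in turn were far above all arrays at 25 and 30 °C, which overlapped each other. The lower values were still measurable, since all spots of the probe were well above background on all arrays except replicate 2 of 30 °C, where 1 of 2 spots was.

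The fold changes of the brighter PH4alphaSG1 probe were 45.2 at 11 °C and 22.3 at 14 °C relative to 25 °C. The signal at 30 °C was 1.67-fold lower than at 25 °C, and the signal at 11 °C was 2.02-fold higher than at 14 °C. The second probe, a single spot, followed the same course with 272, 269 and 290 at 11 °C and 171, 108 and 96.8 at 14 °C. At 25 and 30 °C none of its 6 spots was well above background, and its signals lay between 1.88 and 13.1. Relative to the lowest spot signal well above background on the respective arrays, the second probe was at least 20.9-fold higher at 11 °C and at least 9.17-fold higher at 14 °C than at 25 °C. Its difference between 11 and 14 °C was 2.28-fold, close to that of the brighter probe.

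Averaged over both probes, PH4alphaSG1 had a log2 signal of 9.35 ± 0.18 at 11 °C, 8.25 ± 0.25 at 14 °C, 3.87 ± 0.70 at 25 °C and 2.70 ± 0.29 at 30 °C (SD, n = 3). On the first slide, with 1 array per temperature, its log2 change from 25 °C was 5.02 at 11 °C, 4.35 at 14 °C and -1.74 at 30 °C. With normexp background correction and an offset of 50, which lifts dim signals, the change at 30 °C shrank to -0.16, and the changes were 3.27 at 11 °C and 2.45 at 14 °C. The order 11, 14, 25, 30 °C was thus present in each of these settings, but the step from 25 to 30 °C rested on dim signals.

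Markers of the salivary gland were examined because of the name of PH4alphaSG1. Of 9 markers, 3 (sage, CrebA and Sgs3) were tested and 5, including fkh and the glue genes Sgs4, Sgs5 and Sgs8, did not exceed background clearly on a single array. The summed signal of the list was carried mainly by CrebA and sage. It ranged from 1066 to 1523 at 11 °C and from 825 to 1036 at 14 °C. At 25 °C it was 1073 to 1741, and at 30 °C it was 1618 to 2220. The glue gene Sgs3 was well above background on 5 arrays, all at low temperature, and passed the filter only through them, so its test is not given. It was at least 1.34-fold higher at low temperatures. The transcription factor gene sage had mean log2 signals of 8.01 ± 0.22 at 11 °C, 6.69 ± 0.12 at 14 °C, 7.63 ± 0.50 at 25 °C and 10.1 ± 0.21 at 30 °C (SD, n = 3). It was called higher at 30 relative to 25 °C (log2 change 2.46 ± 0.23, adjusted p = 3.66e-05) and at 11 relative to 14 °C (2.50-fold, adjusted p = 0.00549), and was not called at 11 relative to 25 °C (log2 change 0.38 ± 0.23, adjusted p = 0.193). The part of such cells in the values of PH4alphaSG1 was not tested. In these bulk samples, fewer cells with a transcript and less transcript per cell cannot be told apart.

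PH4alphaNE1 was the member whose course came closest to that of PH4alphaSG1. Its probe gave scaled signals of 193, 167 and 175 at 11 °C and of 120, 87.4 and 122 at 14 °C. None of its 6 spots at 25 °C was well above background (3.27, 6.24 and 7.91), and 2 of 6 were at 30 °C (3.82, 8.75 and 13.3). All low-temperature arrays were above all high-temperature arrays, and every array at 11 °C was above every array at 14 °C.

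Between low and high temperatures, PH4alphaNE1 rose at least 11.8-fold relative to the lowest spot signal well above background on the respective arrays (fitted log2 change 4.43 ± 0.30, adjusted p = 3.83e-07). It was the only one of the 3 tested members other than PH4alphaSG1 that was called, against 9.23% of all features called higher. Of all features, 10.4% had all low arrays above all high arrays. Relative to 25 °C, PH4alphaNE1 rose at least 13.4-fold at 11 °C (adjusted p = 4.81e-06) and at least 8.22-fold at 14 °C (adjusted p = 4.33e-05). Both tests rest on values at 25 °C of which none was well above background. PH4alphaNE1 was again the only such member called, against 8.73 and 5.33% of all features called higher. No member was called lower, against 11.2 and 4.96%. Between 11 and 14 °C the difference of 1.63-fold was not called (log2 change 0.71, 95% interval -0.22 to 1.63, adjusted p = 0.324), and 25 and 30 °C could not be ranked at these signals. On the first slide the log2 change between low and high temperatures was 5.43. With normexp correction it was 1.63 and still called (adjusted p = 8.9e-09), whereas a minimum mean signal of 100 removed the gene from the test.

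PH4alphaNE2 was measured well above background on all 12 arrays and changed far less. Its scaled signals were 909, 1077 and 1076 at 11 °C and 1419, 1330 and 1254 at 14 °C. They were 1031, 733 and 663 at 25 °C and 876, 737 and 628 at 30 °C. The arrays at 14 °C were the highest, above all arrays of the other temperatures, while those at 11 °C overlapped with those at 25 °C through replicate 1 of 25 °C.

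The 1.52-fold higher PH4alphaNE2 signal at low temperatures missed the fold threshold (log2 change 0.60 ± 0.13, adjusted p = 0.00169). At 14 °C the difference from 25 °C was 1.68-fold (log2 change 0.75 ± 0.18, adjusted p = 0.00839). This comparison was called when arrays were scaled on spike-in controls (log2 change 1.16, adjusted p = 0.00127). At 11 °C the log2 change was 0.36 ± 0.18 (adjusted p = 0.122), and on the first slide it had the opposite sign, at -0.18. The values at 30 and 25 °C differed by -0.10 on the log2 scale (95% interval -0.50 to 0.29, adjusted p = 0.746). The lower level at 11 than at 14 °C was not called either (log2 change -0.39, 95% interval -0.79 to 0.01, adjusted p = 0.198). On the first slide alone, the log2 change between low and high temperatures was 0.26, less than 1 SD of the replicates at 25 °C (0.33).

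PH4alphaEFB, named after epidermis and fat body, had the opposite tendency. It was well above background on every array, with 23546, 23064 and 25840 at 11 °C and 24728, 16987 and 21307 at 14 °C. The signals were 25943, 29755 and 28842 at 25 °C and 38883, 33970 and 32706 at 30 °C. The highest low-temperature array and the lowest high-temperature array nearly met, but the groups did not overlap, and all arrays at 30 °C exceeded those at 25 °C. Such a separation with low below high was seen in 21.4% of all features.

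Between low and high temperatures PH4alphaEFB was 1.40-fold lower (log2 change -0.49 ± 0.10, adjusted p = 0.00171), short of the fold threshold. No member was called lower, against 11.4% of all features. Scaling on the 75th percentile left a log2 change of -0.29 (adjusted p = 0.0313), and scaling on spike-in controls left -0.26 (adjusted p = 0.0672). Relative to 25 °C, the log2 change was -0.22 ± 0.15 at 11 °C (adjusted p = 0.229), and 0.02 with the 75th percentile. It was -0.44 ± 0.15 at 14 °C (adjusted p = 0.0381) and 0.32 ± 0.15 at 30 °C (adjusted p = 0.150), the latter a 1.25-fold higher signal. On the first slide these changes were -0.14, -0.07 and 0.58, respectively.

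None of PH4alphaNE1, PH4alphaNE2 and PH4alphaEFB was called between 30 and 25 °C or between 11 and 14 °C. In these comparisons, 4.17 and 3.39% of all features were called higher and lower at 30 °C, and 0.953 and 1.22% higher and lower at 11 °C. The 95% interval of the log2 change at 30 °C was -0.44 to 1.41 for PH4alphaNE1 (adjusted p = 0.464) and -0.0032 to 0.64 for PH4alphaEFB.

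PH4alphaSG2, PH4alphaMP, PH4alphaNE3 and PH4alphaPV did not pass the filter. PH4alphaSG2, the second member named after the salivary gland, had scaled signals of 2.00 to 4.54, PH4alphaNE3 of 1.80 to 4.74 and PH4alphaPV of 2.06 to 6.87, and none of their spots was well above background on any of the 12 arrays. PH4alphaMP behaved likewise, with signals of 2.22 to 4.70, except on replicate 1 of 11 °C, where 1 of its 2 spots was well above background and the signal was 11.6. Changes of these 4 genes with temperature could not be detected at these signals. PH4alphaSG1 and PH4alphaSG2 thus shared a name for an embryonic tissue, but only probes of the former rose well above background. PH4alphaSG2 had 1 probe, for the transcript CG1546-RB, so an absent transcript and a probe that misses it cannot be told apart.

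**Figure D2:**
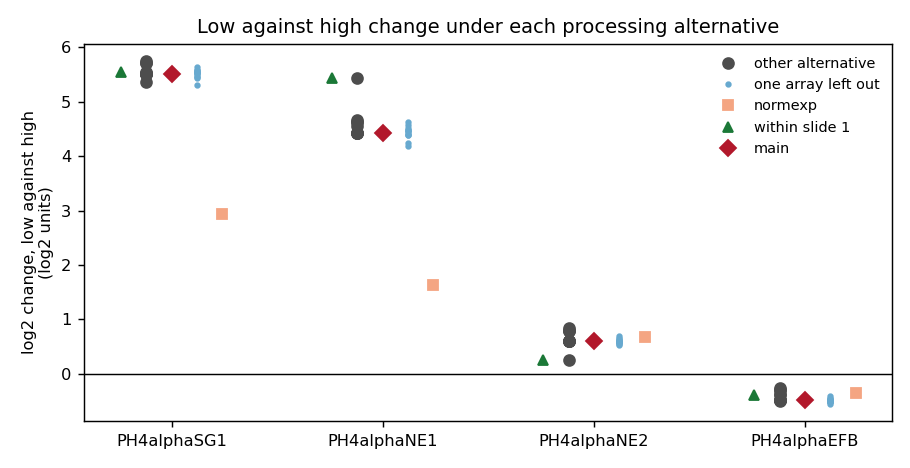
Log2 change between low and high temperatures (y axis, log2 units) of the 4 tested PH4alpha genes with the processing used throughout (diamonds), with each of 12 arrays left out (small blue points), within the first slide (triangles), with normexp background correction (squares) and with the other alternatives (grey circles). PH4alphaSG1 and PH4alphaNE1 stayed above 1 in all that gave a value, at no less than 2.94 and 1.63, PH4alphaNE2 stayed between 0.26 and 0.84 and PH4alphaEFB between -0.55 and -0.26.

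Over the 12 arrays, log2 signals of PH4alphaNE1 and PH4alphaSG1 correlated with Pearson's r = 0.943, those of PH4alphaNE2 and PH4alphaSG1 with r = 0.759 and those of PH4alphaEFB and PH4alphaSG1 with r = -0.781. These coefficients are a description, because all points share the split into low and high temperatures. Among 9171 genes outside the family, the courses most like that of PH4alphaSG1 were those of CG6333 (r = 0.994), ODA-Dnal1 (r = 0.993), CG17329, CG11322 and CG14015 (r = 0.991 each). The first of these was well above background on 6 arrays, ODA-Dnal1 on 11, CG17329 on 10, CG11322 on 4 and CG14015 on all 12. CG14015, the one measured throughout, had mean log2 signals of 7.78 at 11 °C, 7.40 at 14 °C, 5.96 at 25 °C and 5.66 at 30 °C. Its log2 change of 1.78 ± 0.10 between low and high temperatures was much smaller than the 5.52 ± 0.21 of PH4alphaSG1.

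According to the RefSeq gene order, the 8 PH4alpha genes lie within a stretch of 35 genes on chromosome arm 3R, bounded by PH4alphaEFB at one end and PH4alphaPV at the other. PH4alphaSG2, PH4alphaMP and PH4alphaNE1 follow each other directly, and CG31371 separates PH4alphaNE1 from PH4alphaSG1. The pair with the large changes are therefore near neighbours. CG31371 between them was not well above background often enough to be tested, and CG15539 on the other side of PH4alphaSG1 had a log2 change of -0.97 ± 0.39 (adjusted p = 0.0506). PH4alphaSG2 overlaps PH4alphaMP, and PH4alphaNE2 overlaps CG34041, in the gene models, so a probe in the shared part could report either gene.

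Of the 27 other genes of the stretch, 20 had probes and 11 were tested. CG9698 and CG9702 met the criteria for a higher and CG2246 for a lower signal at low temperatures, and the remaining 8 were not called. Of all features, 9.23% were called higher and 11.4% lower. However, CG9698 and CG9702 passed the filter only through low-temperature arrays, 5 and 3 respectively, so their tests are not given. CG9698 was at least 1.15-fold higher at low temperatures and was not called with slide as a block, and no fold could be given for CG9702. CG2246 fell by 1.14 ± 0.07 on the log2 scale (adjusted p = 2.58e-07), but by 0.94 and thus short of a call with scaling on the 75th percentile, and by 0.38 when its brightest probe alone was used. Rpt6R, which encodes a relative of a proteasome ATPase, was called lower at 30 than at 25 °C (log2 change -1.10 ± 0.18, adjusted p = 0.00126). The gene spdo, which overlaps PH4alphaEFB, had a log2 change of -0.06 ± 0.18 between low and high temperatures (adjusted p = 0.795). The median log2 change of the 11 genes was 0.11, compared with -0.17 for all features.

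The substrates and partners of prolyl 4-hydroxylase were examined with a list of 25 genes for collagen chains, their modifying enzymes, collagen secretion and other basement membrane proteins, of which 24 were tested. Between low and high temperatures, 2 were called higher, 2 lower and 20 were not called, close to the 9.23 and 11.4% of all features called higher and lower, with a median log2 change of 0.05. Pdi, which encodes protein disulfide isomerase and thus the beta subunit, differed by -0.10 ± 0.11 on the log2 scale (adjusted p = 0.449), a value whose sign turned with 5 of the alternatives. Its log2 signal was between 13.3 ± 0.30 and 13.5 ± 0.07 at all 4 temperatures (SD, n = 3).

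Col4a1 and vkg, which encode the chains of collagen IV, were highest at 30 °C. Col4a1 had mean log2 signals of 9.83 ± 0.31 at 11 °C, 9.63 ± 0.55 at 14 °C, 9.33 ± 0.30 at 25 °C and 11.5 ± 0.37 at 30 °C (SD, n = 3). For vkg the corresponding values were 10.9 ± 0.18, 10.6 ± 0.33, 10.0 ± 0.25 and 12.6 ± 0.04. Both rose at 30 relative to 25 °C, Col4a1 4.34-fold (log2 change 2.12 ± 0.29, adjusted p = 0.000487) and vkg 5.98-fold (log2 change 2.58 ± 0.18, adjusted p = 6.50e-06), and on the first slide by 2.64 and 2.89 on the log2 scale. Of the 9 markers of hemocyte-like cells, which include both genes, 5 met the criteria for a higher signal in this comparison. Of all features, 4.17% were called higher. The 5 include NimC1, which was well above background on only 3 arrays and highest at 30 °C. None of the 9 was called lower, against 3.39% of all features. The signals of eater, pnr and srp were lower at 30 °C (log2 changes -1.29, -0.62 and -0.36, respectively). The summed signal of the 9 markers was 21590 to 27750 at 25 °C and 22300 to 27290 at 30 °C, and their part in the result was not tested. In the same comparison PH4alphaEFB was 1.25-fold higher without a call, and the brighter probe of PH4alphaSG1 was 1.67-fold lower. Between low and high temperatures the chains were not called (Col4a1 -0.66 ± 0.21, adjusted p = 0.0171, and vkg -0.59 ± 0.13, adjusted p = 0.00199).

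**Figure D3:**
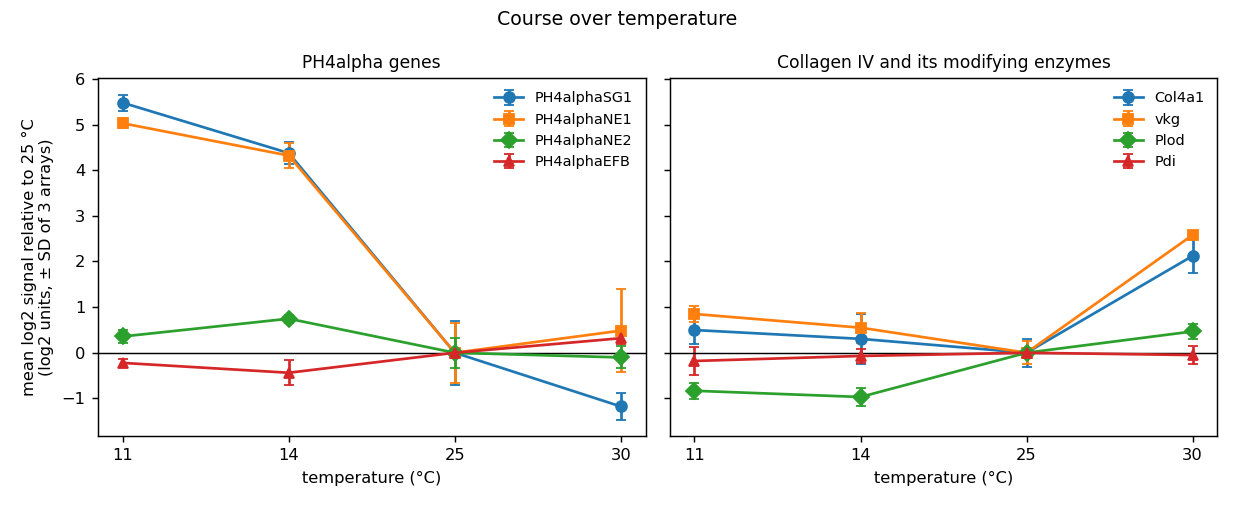
Mean log2 signal relative to the mean at 25 °C (y axis, log2 units, ± SD of 3 arrays) by temperature (x axis, °C, categories evenly spaced) for the 4 tested PH4alpha genes (left) and for collagen IV chains and their modifying enzymes (right). PH4alphaSG1 and PH4alphaNE1 were elevated at 11 and 14 °C, where Plod was reduced, and Col4a1 and vkg were elevated at 30 °C by 2.12 and 2.58. Values of PH4alphaNE1 and in part PH4alphaSG1 at 25 and 30 °C rest on signals not well above background.

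Plod, the lysyl hydroxylase gene that acts on collagen alongside prolyl 4-hydroxylase and likewise requires oxygen, iron and ascorbate, moved in the direction opposite to PH4alphaSG1 and PH4alphaNE1. Its mean log2 signal was 7.77 ± 0.17 at 11 °C, 7.64 ± 0.20 at 14 °C, 8.61 ± 0.01 at 25 °C and 9.07 ± 0.17 at 30 °C (SD, n = 3). It was called lower at low temperatures, by 2.19-fold (log2 change -1.13 ± 0.10, adjusted p = 2.97e-06). With scaling on the 75th percentile the log2 change was -0.94 and missed the fold threshold.

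Other members of the list moved in different directions. Mp, a collagen of the multiplexin type, rose at least 2.24-fold at low temperatures (fitted log2 change 1.44 ± 0.31, adjusted p = 0.00211). Relative to 25 °C it was not called at 11 °C (log2 change 0.46, adjusted p = 0.412), at 14 °C (0.77, adjusted p = 0.205) or at 30 °C (-1.66, adjusted p = 0.0214), where its mean was lowest. The perlecan gene trol was 2.23-fold higher at low than at high temperatures (log2 change 1.16 ± 0.13, adjusted p = 1.85e-05). Relative to 25 °C it was not called at 11 °C (log2 change 0.59, adjusted p = 0.02) or 14 °C (0.45, adjusted p = 0.0789), and its mean was lowest at 30 °C (-1.265). LanB1, a laminin chain gene, fell by 1.09 ± 0.18 on the log2 scale (adjusted p = 0.000297), and by 0.89 and thus short of a call with scaling on the 75th percentile. With slide as a block neither Mp nor LanB1 was called. At 30 relative to 25 °C, Col4a1, vkg and Pxn were called higher and trol was called lower. At 11 °C Ero1L and Ppn, and at 14 °C Ppn, were called higher relative to 25 °C, and none of the list was called between 11 and 14 °C.

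A list of 8 genes of the hypoxia pathway and related hydroxylases was included because these enzymes share the cofactors of PH4alpha proteins. All 8 were tested. Between low and high temperatures none was called higher, against 9.23% of all features, and 2 (Vhl and Plod) were called lower, against 11.4%, counts too small to set the list apart. Vhl, which encodes the ubiquitin ligase component that recognises the hydroxylated hypoxia factor, fell by 1.52 ± 0.08 on the log2 scale (2.87-fold, adjusted p = 9.32e-08). It was also the one gene of the list called at 11 relative to 25 °C, where it fell by 1.37 ± 0.12 (adjusted p = 5.38e-06). Hph, the prolyl hydroxylase of that factor, had a log2 change of -0.40 ± 0.11 (adjusted p = 0.0098) and did not reach the fold threshold. The median log2 change of the list was -0.24, compared with -0.17 for all features.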

How the data were processed

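Per the file headers, the authors quantified the single-colour arrays with Agilent Feature Extraction 10.7.3.1, and the deposited spot intensity is a processed signal after background subtraction, in which values indistinguishable from background are replaced by a small surrogate. It is not normalized between arrays. The deposited log2 table, used as an alternative, holds the same signal shifted by a constant per array. The genome build of the array is not given in the sources used here.

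Control spots and outliers were left out, log2 signals were averaged over spots, and arrays were scaled to the median of the 25 °C arrays. The filter required a probe to be well above background (in 50% or more of its spots) on 2 or more of the 3 arrays at 1 or more temperatures, with values on 10 or more arrays. The RefSeq table of the assembly Release 6 plus ISO1 MT named 19477 of 32162 probes (60.6%), and probes of a gene were averaged. Changes were tested with limma 3.58.1 in R 4.3.3 (a mean per temperature, 12 arrays, eBayes, Benjamini-Hochberg adjustment over 15115 features), and the code was tested on simulated data. Errors of log2 changes are SE. For probes not well above background, the lowest spot signal well above background on the array replaced a lower signal in bounds. That signal is the lowest over all gene spots of the array, so a higher limit would give smaller bounds. The 26 alternatives covered scaling, background, filters, probes, slide and replicate blocks, arrays in the fit and each array left out.

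The members and gene lists were chosen with earlier results of these data known. The text names all members, Col4a1, vkg, Plod and Pdi, up to 4 called genes per list with the largest change between low and high temperatures, called genes of the PH4alpha stretch and the 5 genes most like PH4alphaSG1. Pxn, Ero1L, Ppn, Hph, spdo, CG15539 and the marker genes were named after their values were seen. Other prolyl 4-hydroxylase-like genes were not analysed here as a list. The number of arrays limits the precision. Of the marker lists not described above, 2 of 6 fat body, 2 of 3 muscle precursor, 3 of 3 neuron and 2 of 2 proventriculus and gut genes were tested, and none of them was called in any comparison.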

Additional observations from a re-analysis of the deposited data

Results flagged for a closer look

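PH4alphaMP, which did not pass the filter on dim probes, gave a scaled signal of 11.619 on replicate 1 of 11 °C, where 1 of its 2 spots was well above background. On the other 11 arrays, including the other replicates of 11 °C, its signals lay between 2.22 and 4.70 and no spot was well above background.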

How the results depend on the processing

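The direction of change between low and high temperatures was the same for PH4alphaSG1, PH4alphaNE1, PH4alphaNE2 and PH4alphaEFB with every alternative that gave a value. Leaving aside PH4alphaSG1, which carries no test, PH4alphaNE1 was the 1 member called higher. It was not tested with a minimum mean signal of 100. This left 0 such members called between low and high temperatures and at 11 and 14 °C relative to 25 °C. Scaling on spike-in controls gave 2 at 14 °C, PH4alphaNE1 and PH4alphaNE2. The call of PH4alphaNE1 held with each array left out (log2 change 4.18 to 4.63, adjusted p at most 2.94e-06). Changes below the fold threshold turned sign in a few settings. For PH4alphaEFB at 11 relative to 25 °C, the value was 0.0230 with the 75th percentile, 0.0146 with scaling on probes detected on all 12 arrays and 0.0388 with spike-in controls. Between 11 and 14 °C it was -0.0706 within the first slide. For PH4alphaNE2, it was -0.18 at 11 °C within the first slide. At 30 relative to 25 °C PH4alphaNE2 was at 0.11 with spike-in controls and between -0.23 and 0.0864 with single arrays left out, positive without 25C replicate 1 (0.0864) and without 30C replicate 3 (0.0168). Pdi between low and high temperatures was at 0.0908 with the 75th percentile, 0.0859 with probes detected on all 12 arrays, 0.0245 with quantile normalization, 0.13 with spike-in controls and 0.12 with its brightest probe. Of the other genes named as called between low and high temperatures, Plod, Mp, LanB1 and CG2246 lost the call with normexp correction. So did trol and Rpt6R between 30 and 25 °C. CG9698 and CG9702, whose tests are not given, no longer met the criteria with this correction either. The cause was not tested. Over all features, 1395 were called higher and 1720 lower between low and high temperatures, 679 and 614 with normexp correction, 629 and 551 with a test against a 2-fold change, 622 and 1029 with the minimum signal, and 1734 and 1185 with the 75th percentile.

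Same-numbered replicates deviated together with r between 0.09 and 0.57 (mean 0.27), over 0.1 in 15 of 18 pairs. Pairs with different numbers had a mean r of -0.13. Replicates 1, which all lay on the first slide, had r of 0.30 to 0.57 with each other. Among replicates 2 and 3, r was 0.09 to 0.32 for the same number and 0.10 to 0.32 for different numbers. The main fit did not pair the samples by number. With the replicate number as a block, 1401 features were called higher and 1743 lower, the log2 change of PH4alphaNE1 was 4.43, and the call of no member changed. With slide as a block, the comparison of low and high temperatures rests on the first slide.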
